A study of Mus musculus with 8 samples.

Results

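Usp17la, Zfp809, Zfp982 and Zfp979 are 4 mouse genes whose signal was higher in pre-iPSCs treated with siRNA against 3 H3K9 methyltransferases than in control cells. They were chosen for that difference, and every probe set annotated to them was then followed: 7 of the 45101 probe sets on the array, and 4 of the 18193 genes that had a probe set of their own. Usp17la, Zfp809 and Zfp979 had 1 probe set each. Zfp982 had 4, of which 1 is annotated to Gm13212 as well. Pre-iPSCs are somatic cells caught partway to the induced pluripotent state. The labels name neither their cell of origin nor a mouse strain. All 8 arrays come from these cells after 3 days with siRNA. Control arrays (n = 3) received siRNA against luciferase, which mouse cells do not encode. The group called 3XHMT (n = 2) received siRNA to Ehmt1, Ehmt2 and Setdb1 together, and the Cbx3 group (n = 3) received siRNA to Cbx3, the gene of HP1 gamma. The submitters describe the arrays of a group as biological replicates without naming what was repeated, so p-values measure the spread between these arrays.

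Di- and trimethylation of lysine 9 on histone H3 mark silenced chromatin. Ehmt1 and Ehmt2 place mainly the dimethyl mark and Setdb1 the trimethyl mark, while HP1 proteins such as Cbx3 bind methylated lysine 9. Zinc finger proteins with a KRAB domain bind chosen DNA sequences and recruit Trim28, which brings in Setdb1. Genes for such zinc finger proteins lie in clusters of near-identical copies, many of them on mouse chromosome 4, and are themselves marked by H3K9 methylation in several cell types. Zfp809 recognises the primer binding site of murine leukaemia viruses and silences proviruses in mouse embryonic stem cells. Zfp979, also called Ssm1b, is a modifier of transgene methylation that differs between mouse strains, and Zfp982 has been linked to the expression of Nanog, Zfp42 and Dppa3 in mouse embryonic stem cells. Usp17la, also called Dub1, encodes a deubiquitinase of a multicopy family first known as cytokine-induced in blood cells; family members are also expressed at the 2-cell stage of the mouse embryo.

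The targeted transcripts stood below control on average, and the arrays differed in a way the groups do not explain. Brightest probe sets stood at 63.2% of control for Setdb1, 66.8% for Ehmt2 and 79.6% for Ehmt1 in the 3XHMT arrays. None of these 3 falls passed by limma, the lowest adjusted p being 0.339 (Setdb1). The Ehmt2 arrays overlapped, with control 3 at 9.68 and 3XHMT 1 at 9.78 on the log2 scale. Cbx3 stood at 42.8% of control in the Cbx3 arrays (probe set shared with its pseudogene). The signal of a control probe set for 18S ribosomal RNA split the arrays into 3 sets, called 18S sets here: control 2, 3XHMT 1 and Cbx3 2 at 12.6 to 12.8 on the log2 scale, control 1 and Cbx3 1 at 11.2 to 11.5, and control 3, 3XHMT 2 and Cbx3 3 at 9.98 to 10.2. Of the markers examined in control cells, the 6 pluripotency markers stood between the 37.2th (Nanog) and 99.2th (Pou5f1) percentile of their arrays. The 5 fibroblast markers stood between the 30.1th and 51.7th. The 4 macrophage and leukocyte markers stood between the 8.82th (Ptprc) and 69.2th (Cd68), and the 3 endothelial markers between the 16.6th (Pecam1) and 65.7th (Kdr).

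Zfp982 was the member with the largest difference, and it depended on the probe set. At probe set 1439065_x_at its log2 signal was 4.40, 4.66 and 4.58 in the 3 control arrays, 7.73 and 6.04 in the 3XHMT arrays, and 5.54, 6.83 and 5.34 in the Cbx3 arrays. Both knockdown groups stood above every control array, and the array of each knockdown in the highest 18S set was the highest of its group. The 3XHMT mean was 6.88 ± 1.20 (SD, n = 2) against 4.55 ± 0.13 (SD, n = 3) in control, 5.05-fold higher. That difference chose the gene and carries no test. The arrays measure bulk RNA, in which more expressing cells and more RNA per cell cannot be told apart. It was 2.81-fold without 3XHMT replicate 1 and 9.08-fold without 3XHMT replicate 2. Within the 18S sets it was 8.39-fold in the highest set and 2.75-fold in the lowest; what part the 18S signal has in it was not tested.

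The other Zfp982 probe sets were dim and differed less. Probe set 1459260_at read 4.27, 4.33 and 4.13 in control and 4.63 and 4.61 in 3XHMT, a difference of 1.30-fold without overlap of these groups. The probe set shared with Gm13212, 1456179_at, read 4.07, 3.89 and 3.83 in control and 4.39 and 4.27 in 3XHMT, 1.32-fold higher. At 1436386_x_at the control arrays read 3.63, 3.77 and 3.19 and the 3XHMT arrays 3.89 and 3.50, which overlap (1.12-fold). These 3 probe sets lay between the 6.02th and 28.6th percentile of probe sets on their arrays, where fold changes can be compressed. In control cells 1439065_x_at lay at the 26.9th on average, close to 1459260_at at the 22.0th, and it reached the 71.2th in a 3XHMT array. What part low signal has in the smaller differences was not tested. The suffix _x_at means that probes of the set also match other sequences, so signal at 1439065_x_at cannot be assigned to Zfp982 alone.

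Zfp979, which lies in the same chromosome 4 cluster as Zfp982, showed a like pattern. Its log2 signal was 3.48, 3.68 and 3.70 in control, 5.04 and 4.65 in 3XHMT, and 4.002, 4.85 and 4.05 in Cbx3 cells. Every knockdown array was above every control array, and Cbx3 2 lay between both 3XHMT arrays. The 3XHMT mean was 4.85 ± 0.28 (SD, n = 2) against 3.62 ± 0.12 (SD, n = 3), 2.34-fold higher, with 2.57-fold and 1.94-fold in the highest and lowest 18S sets. Over the 8 arrays the probe sets of Zfp979 and 1439065_x_at of Zfp982 correlated with Pearson's r of 0.97, a description of arrays that share group and 18S set.

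**Figure D1:**
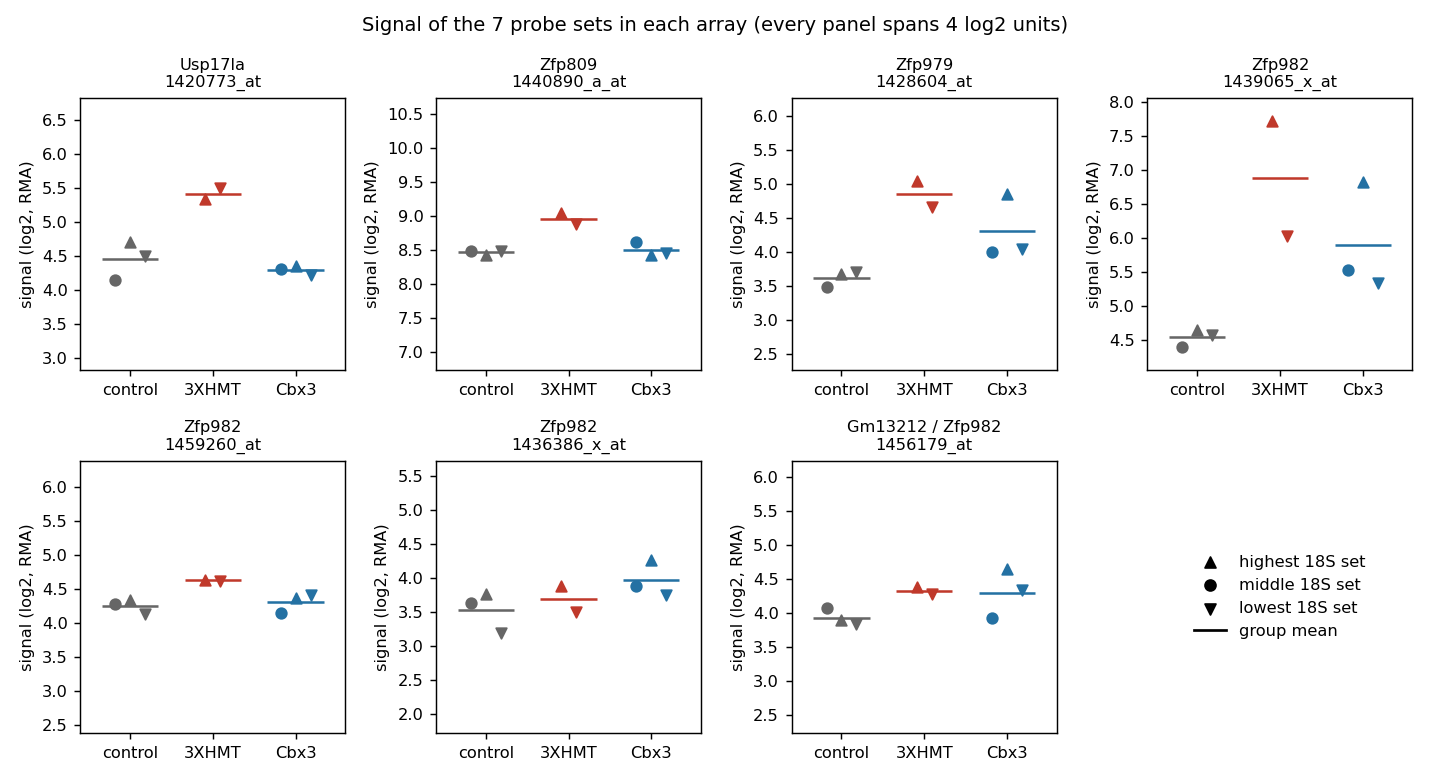
Log2 signal of the 7 probe sets in each array; lines are group means, marker shapes the 18S sets, and every panel spans 4 log2 units. Zfp979 and the _x_at probe set 1439065_x_at of Zfp982 stand above control in both knockdowns, Usp17la and Zfp809 in the 3XHMT arrays alone.

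The sequences before the transcription starts of Zfp979 and Zfp982 are shown because the signals of these genes went together across arrays, with that of Rex2, the closest match to Zfp979. RefSeq gives them in build GRCm38.p6, and each is the 250 bases before an annotated start, read 5′ to 3′ in the direction of the gene; for Zfp982 it is the second of 3 annotated starts. Capitals mark the GC box GGGCGG and the CCAAT box, here on the opposite strand as ATTGG, which overlap by their shared letters.
Zfp979, chr4:147642509-147642758, minus strand: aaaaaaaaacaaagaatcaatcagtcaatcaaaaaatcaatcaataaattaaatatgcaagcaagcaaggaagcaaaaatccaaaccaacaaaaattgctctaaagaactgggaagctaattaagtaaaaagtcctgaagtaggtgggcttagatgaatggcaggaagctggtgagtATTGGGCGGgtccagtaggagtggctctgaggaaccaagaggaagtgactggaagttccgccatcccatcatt
Zfp982, chr4:147492167-147492416, plus strand: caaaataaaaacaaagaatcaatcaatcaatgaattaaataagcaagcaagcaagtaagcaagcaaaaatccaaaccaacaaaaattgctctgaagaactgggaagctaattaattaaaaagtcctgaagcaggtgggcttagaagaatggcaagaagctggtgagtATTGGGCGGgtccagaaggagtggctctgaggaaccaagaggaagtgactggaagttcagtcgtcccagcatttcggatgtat
Rex2, chr4:147021600-147021849, plus strand: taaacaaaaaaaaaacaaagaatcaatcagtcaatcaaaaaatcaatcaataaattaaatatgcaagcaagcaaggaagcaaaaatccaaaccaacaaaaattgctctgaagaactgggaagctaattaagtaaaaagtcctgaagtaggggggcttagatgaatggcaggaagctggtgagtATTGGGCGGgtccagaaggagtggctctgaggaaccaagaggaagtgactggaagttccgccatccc
Zfp979 and Zfp982 were identical at 221 of 254 aligned columns (87.0%), and Zfp979 and Rex2 at 241 of 244 (98.8%). Among 32841 upstream sequences of the RefSeq table, 8 genes had one at least 80% identical to that of Zfp979 over 200 or more columns. All 8 lie on chromosome 4: Rex2, Zfp600, Zfp980, Zfp534, Zfp988, Zfp982, Zfp987 and Zfp985. Neither of the other Zfp982 starts had such a match on chromosome 4. On either strand, GGGCGG was present in 32.7% and CCAAT in 33.9% of all upstream sequences, so neither match is rare.

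How the likeness of these copies affects what probe sets read was not tested, since probe sequences were not compared. Several probe sets of the chromosome 4 zinc finger genes are annotated to more than 1 gene. They were examined after their values were seen and are described without a test. Probe set 1438237_at, annotated to Rex2, Zfp980 and Zfp600, read 6.66, 7.26 and 6.91 in control, 9.14 and 8.31 in 3XHMT, and 8.13, 9.54 and 9.21 in Cbx3 arrays. All knockdown arrays were above all control arrays, by a mean of 1.78 (3XHMT) and 2.02 (Cbx3) on the log2 scale. Probe set 1445924_at, annotated to Gm21082, Zfp981 and Zfp980, read 4.02, 4.12 and 4.20 in control, 4.80 and 4.97 in 3XHMT, and 4.25, 4.56 and 4.74 in Cbx3 arrays, again without overlap with control.

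Zinc finger genes of the cluster with probe sets of their own were less uniform. Zfp991 at 1424784_at read 6.99, 7.26 and 7.04 in control, 7.94 and 7.23 in 3XHMT, and 7.80, 8.52 and 7.75 in Cbx3 arrays, so that the Cbx3 arrays but not 3XHMT 2 were above every control array. Its other probe sets differed from control by 0.14 and 0.22 (3XHMT) and by 0.10 and 0.29 (Cbx3) on the log2 scale. The probe set of Rex2 alone lay between 3.39 and 4.23 in all arrays, with differences of 0.27 and 0.00.

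**Figure D2:**
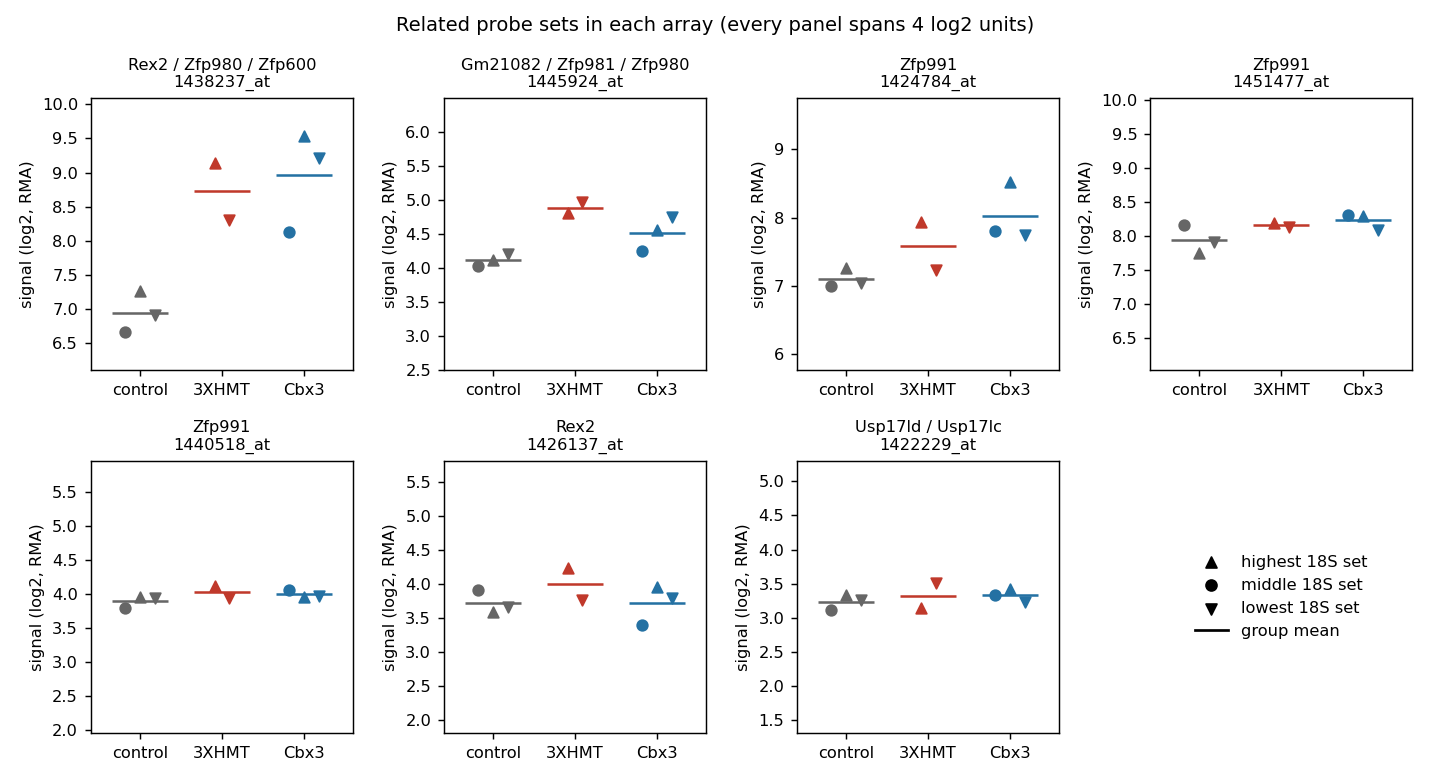
Log2 signal of probe sets annotated to other zinc finger genes of the chromosome 4 cluster and to the Usp17la relatives Usp17ld and Usp17lc, drawn as in the plot of the members. The probe sets shared by Rex2, Zfp980 and Zfp600 and by Gm21082, Zfp981 and Zfp980 are above control in every knockdown array. The Usp17ld and Usp17lc probe set is not, and its signal is too low to show whether these genes differ.

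Zfp809 was the brightest member, and its signal was higher in the 3XHMT arrays alone. It read 8.49, 8.43 and 8.48 in control, 9.04 and 8.88 in 3XHMT, and 8.62, 8.43 and 8.46 in Cbx3 arrays. Both 3XHMT arrays were above all 6 others. The difference from control was small, 1.41-fold (8.96 ± 0.11, SD, n = 2, against 8.47 ± 0.03, SD, n = 3), and was 1.53-fold and 1.32-fold in the highest and lowest 18S sets. Its 1 probe set, 1440890_a_at, stands for alternative transcripts of the gene. The 250 bases before 1 of its annotated starts are shown for contrast with the chromosome 4 genes. The annotated span of the gene begins at 22225667, so the last of these bases lie within it. None of the upstream sequences of other genes matched them at the threshold above.
Zfp809, chr9:22225453-22225702, plus strand: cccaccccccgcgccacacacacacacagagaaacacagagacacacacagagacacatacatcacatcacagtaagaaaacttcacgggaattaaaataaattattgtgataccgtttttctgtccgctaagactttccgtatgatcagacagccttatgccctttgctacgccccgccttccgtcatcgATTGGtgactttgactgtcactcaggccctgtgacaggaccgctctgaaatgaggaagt
They hold 11 CpG dinucleotides, against a median of 6 over all upstream sequences and 2 before Zfp979. The 1 capital run is a CCAAT box on the opposite strand.

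Usp17la had low signal, higher in the 3XHMT arrays alone. Its log2 signal was 4.15, 4.71 and 4.50 in control, 5.34 and 5.49 in 3XHMT, and 4.31, 4.35 and 4.22 in Cbx3 arrays. The 3XHMT arrays stood above all 6 others, and the control and Cbx3 arrays overlapped. The difference from control was 1.95-fold (5.42 ± 0.11, SD, n = 2, against 4.45 ± 0.28, SD, n = 3), with 1.55-fold and 1.99-fold in the highest and lowest 18S sets. Its percentile on the arrays was 42.3 on average in 3XHMT and 25.4 in control cells, so even the higher signal was below the array median. Its upstream sequence is shown because close relatives share it, and the capitals mark CCAAT boxes on the opposite strand.
Usp17la, chr7:104856766-104857015, plus strand: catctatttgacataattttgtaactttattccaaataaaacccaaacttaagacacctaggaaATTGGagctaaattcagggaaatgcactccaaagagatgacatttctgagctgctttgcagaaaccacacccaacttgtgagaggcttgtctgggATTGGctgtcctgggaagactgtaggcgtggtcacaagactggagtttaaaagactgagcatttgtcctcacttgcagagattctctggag
Usp17lc, at 95.2% identity, and Usp17lb, at 87.2%, were the 2 genes that matched it at the threshold above. Probe sets annotated to Usp17ld and Usp17lc together did not follow Usp17la. They read 3.11 to 3.50 and 3.33 to 3.76 over all 8 arrays, with 3XHMT minus control differences of 0.09 and -0.10 on the log2 scale. Both lay low on the arrays, at the 5.54th to 10.5th and the 8.08th to 15.1th percentile, so a difference could go unseen.

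Taking the members as a group, 6 of 7 probe sets had both 3XHMT arrays above every control array. Over all probe sets tested this share was 8.54%, and nothing is read from the contrast, since the members were chosen on it. In rank of difference, 0.0555% of probe sets exceeded 1439065_x_at of Zfp982, 0.229% Zfp979, 0.366% Usp17la and 1.51% Zfp809.

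The Cbx3 arrays did not enter the choice of the members, although their comparison uses the same control arrays. Zfp982 at 1439065_x_at averaged 5.902 ± 0.81 (SD, n = 3) in Cbx3 cells, 2.56-fold above control (log2 difference 1.36, 95% interval 0.23 to 2.48; limma adjusted p = 0.544). Zfp979 averaged 4.30 ± 0.48 (SD, n = 3), 1.60-fold above control (0.68, interval 0.14 to 1.22; limma adjusted p = 0.502). Neither passed the threshold of 0.05, and both had a low unadjusted limma p (0.0241 and 0.0192). With the 18S set as a block, which for these groups is also the pairing by replicate number, both passed, at limma adjusted p of 0.0279 and 0.0471. When the same pairing was fitted to the control and Cbx3 arrays without 3XHMT, Zfp982 passed (0.0170) and Zfp979 did not (0.0545). Within the 18S sets, Zfp982 was 4.49-fold, 2.20-fold and 1.70-fold above the paired control in the highest, middle and lowest set, and Zfp979 2.25-fold, 1.43-fold and 1.28-fold. Cbx3 replicate 2 carried much of this: without it the log2 differences were 0.89 and 0.41.

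Usp17la and Zfp809 gave no detected difference in Cbx3 cells. Usp17la differed by -0.16 (95% interval -0.51 to 0.19; limma adjusted p = 1.00) and Zfp809 by 0.04 (interval -0.20 to 0.28; adjusted p = 1.00) on the log2 scale. The remaining Zfp982 probe sets differed by 0.06 to 0.44, with limma adjusted p of 0.737 to 1.00. In all, 0 of 7 member probe sets passed, where 0.0777% of all probe sets did; 2 of 7 had an unadjusted p under 0.05, where 7.23% did, and 2 of 7 passed with the block, where 3.43% did. All 3 Cbx3 arrays were above every control array at 2 of 7, against 6.11% of all probe sets.

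**Figure D3:**
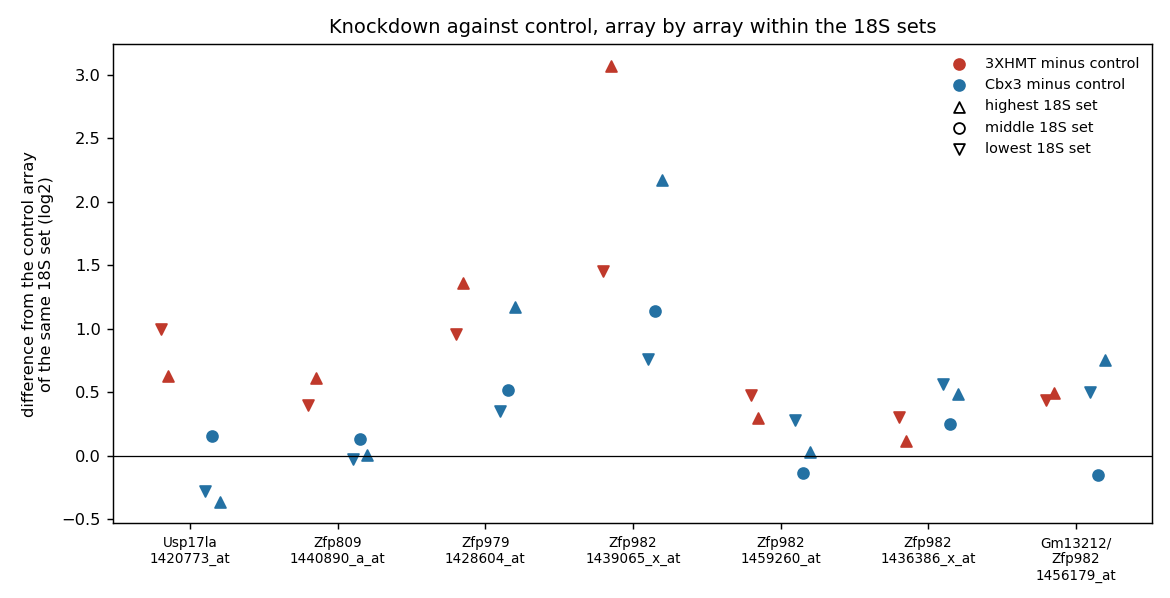
Difference of each knockdown array from the control array of its 18S set, on the log2 scale, for the 7 probe sets. Zfp979 and 1439065_x_at of Zfp982 lie above 0 in all 5 differences, while the Cbx3 differences of Usp17la and Zfp809 lie from -0.36 to 0.16.

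Set against each other, the knockdowns differed most clearly at Usp17la and Zfp809, described without a test because the 3XHMT arrays chose the members. Usp17la was 2.18-fold and Zfp809 1.37-fold higher in 3XHMT than in Cbx3 cells, without overlap. Zfp979 and Zfp982 at 1439065_x_at were 1.46-fold and 1.97-fold higher, but their arrays overlapped. Without 3XHMT replicate 1 the Zfp982 difference was 0.13 on the log2 scale. In all, 3 of 7 probe sets had both 3XHMT arrays above every Cbx3 array, as had 11.8% of all probe sets.

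Zinc finger genes at large did not follow the 4 members. They were taken as every gene named Zfp and a number that had a probe set of its own. The shared probe sets of the chromosome 4 cluster, described above as higher in both knockdowns, do not enter this list. Of 302 measured besides the members, 151 were higher and 151 lower in 3XHMT than in control cells, with a median log2 difference of 0.00 against 0.01 over all genes. By limma 1 gene changed, where 0.231% of all genes did. It was Zfp42, a pluripotency marker also called Rex1, which rose 8.54-fold (adjusted p = 0.0452), a call lost on leaving out any 1 array. An unadjusted p under 0.05 was reached by 8 higher and 4 lower genes, 3.97% against 5.27% of all genes. With the 18S set as a block 2 rose and 2 fell, where 1.76% of all genes changed. Those that rose were Zfp42 and Zfp934, which was 1.79-fold higher (limma adjusted p = 0.306, blocked 0.0297). The lower genes with the smallest p were Zfp36, which encodes the RNA-destabilising protein tristetraprolin, at 1.52-fold (adjusted p = 0.352; blocked 0.0422), and Zfp516 at 1.66-fold (adjusted p = 0.569; blocked 0.00962).

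In Cbx3 cells the zinc finger genes lay lower instead. Of the 302, 198 were below control and 104 above, with a median log2 difference of -0.09 against 0.01 over all genes. By limma 0 passed, where 0.445% of all genes did. An unadjusted p under 0.05 was reached by 45 lower and 7 higher genes, 17.2% against 9.56% of all genes. With the 18S set as a block 32 fell and 8 rose, where 6.59% of all genes changed. Zfp711 was 3.87-fold lower (limma adjusted p = 0.0796 unblocked and 0.00103 blocked) and Zfp943 1.62-fold lower (0.0823 and 0.0103), while Zfp36 was 1.57-fold higher (0.112 and 0.00985). Zfp979 and Zfp982, both higher in Cbx3 arrays, therefore stood on the opposite side from most zinc finger genes.

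**Figure D4:**
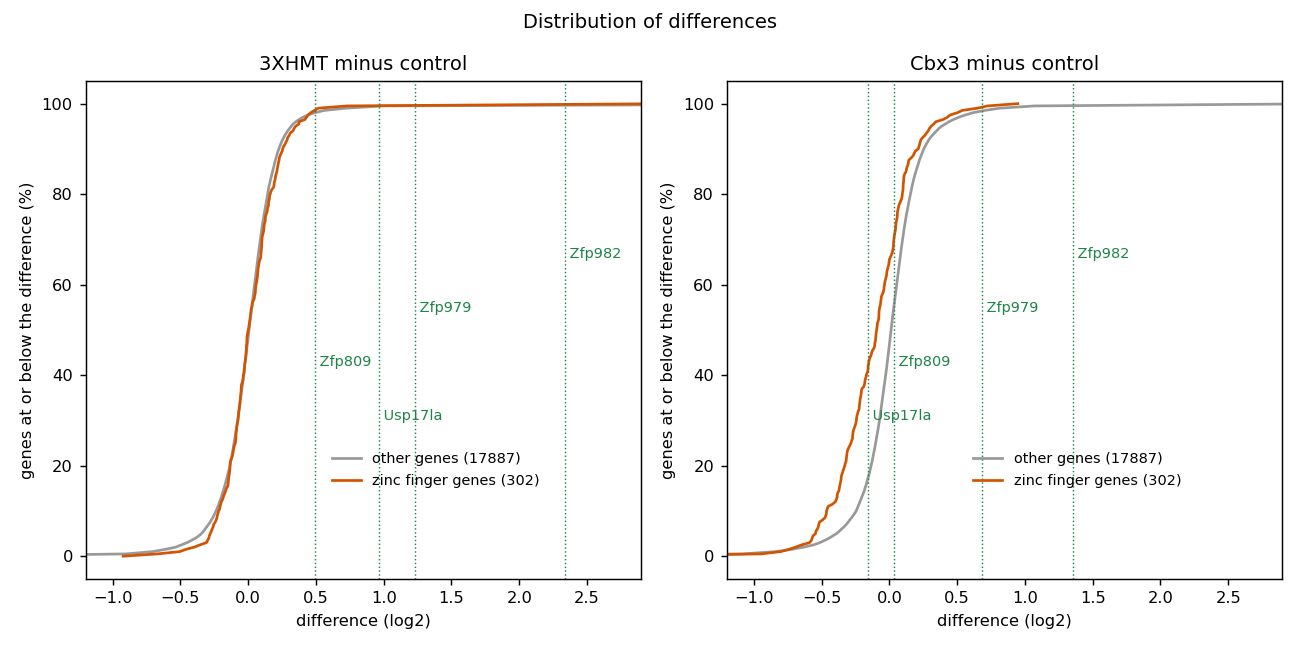
Cumulative share of genes (%) against the log2 difference from control for 302 zinc finger genes and 17887 other genes, with the members as dotted lines. The zinc finger curve overlies that of other genes in 3XHMT cells and is shifted to lower values in Cbx3 cells.

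Other genes of the 2-cell stage had little signal. Of 46 entries in the list, 20 had a probe set of their own, and 17 of these were below the array medians in control cells. In 3XHMT cells 15 were higher and 5 lower (median log2 difference 0.10), and 1 rose by limma, where 0.203% of all genes did: Dppa4, a chromatin factor that acts with Dppa2 upstream of 2-cell genes. Its arrays read 5.55, 5.54 and 5.48 in control, 8.61 and 7.55 in 3XHMT, and 5.28, 5.08 and 5.25 in Cbx3 cells (adjusted p = 0.0135 for 3XHMT against control). The call was lost without control replicate 1 or 2. Dppa2 was 6.42-fold higher (limma adjusted p = 0.0682, blocked 0.00199). Of the list, 2 higher genes had an unadjusted limma p under 0.05 in 3XHMT cells, 10% against 5.27% of all genes. The probe sets of the 2-cell genes Zfp352, Tcstv1, Tcstv3, Tdpoz1 and Duxf3 differed by 0.02 to 0.21, and a probe set shared by several Zscan4 genes read 4.48 to 5.08 over all arrays. In Cbx3 cells 11 were higher and 9 lower. By limma 0 passed and 0 had an unadjusted p under 0.05, where 0.445% and 9.56% of all genes did. Dppa2 was 1.81-fold lower there (limma adjusted p = 0.542, blocked 0.0324).

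The silencing pathway of KRAB zinc finger proteins was measured through 32 of 35 listed genes, and 0 changed by limma in either knockdown, where 0.231% (3XHMT) and 0.445% (Cbx3) of all genes did. An unadjusted p under 0.05 was reached in 3XHMT cells by 3 higher genes and by Setdb1, which was targeted and lower, 12.5% against 5.27% of all genes. In Cbx3 cells 1 higher and 3 lower genes reached it, 12.5% against 9.56%. Cbx3 itself enters this list at a dim probe set of its own, which differed by -0.27 on the log2 scale in Cbx3 cells (adjusted p = 0.869), and not at the bright probe set shared with its pseudogene. Trim28 stood at 110% of control in 3XHMT and 107% in Cbx3 cells. Atf7ip2, a relative of the Setdb1 cofactor Atf7ip, was 1.75-fold higher in Cbx3 cells (adjusted p = 0.178; blocked 0.00995). Of the genes linked to Zfp982, Nanog and Zfp42 rose in 3XHMT cells and Nanog alone in Cbx3 cells (9.94-fold, adjusted p = 0.0151), while Dppa3 differed by 0.34 and 0.16 on the log2 scale (adjusted p = 1.00 and 0.932).

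Among 48 measured ubiquitin-specific proteases, the enzyme family of Usp17la, 0 passed by limma in either knockdown, against 0.231% and 0.445% of all genes. Usp20, which read 7.60, 7.61 and 7.40 in control and 6.82 and 6.86 in 3XHMT arrays, was 1.62-fold lower (adjusted p = 0.0828; blocked 0.0243). Usp50 was 2.02-fold lower in Cbx3 cells (adjusted p = 0.163; blocked 0.00105). In 3XHMT cells 3 lower genes, and in Cbx3 cells 2 higher and 2 lower genes, had an unadjusted p under 0.05, which is 6.25% and 8.33% against 5.27% and 9.56% of all genes.

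Most genes that lie beside the members gave no detected difference. Zfp982 and Zfp979 lie 148 kb apart, and the shared probe sets of their cluster described above were also above control, but the counts here hold neither the members nor shared probe sets and take each gene at its brightest probe set. Of 103 genes measured within 1 Mb of a member, 56 were higher and 47 lower in 3XHMT cells, and 58 and 45 in Cbx3 cells. By limma 0 passed in either, against 0.231% and 0.445% of all genes. An unadjusted p under 0.05 was reached by 6 (5.83%) in 3XHMT cells and 4 (3.88%) in Cbx3 cells, against 5.27% and 9.56% of all genes. The 33 neighbours of Usp17la differed by -0.41 to 0.44 in 3XHMT cells and the 24 of Zfp979 by -0.37 to 0.54, all below the members' own differences. Those of Zfp809 reached 0.37 at Ecsit, an adaptor of innate immune signalling (limma adjusted p = 0.840), against 0.49 for Zfp809. At the other end Bmper differed by -1.15, which is larger in size than the difference of Zfp809. The members were chosen for a high 3XHMT difference, so nothing is read from their standing above neighbours in 3XHMT cells. In Cbx3 cells the neighbours of Zfp979 ran from -0.41 to 0.53 at their brightest probe sets, but Zfp991, counted at 0.29, differed by 0.92 at 1424784_at, more than the 0.68 of Zfp979.

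**Figure D5:**
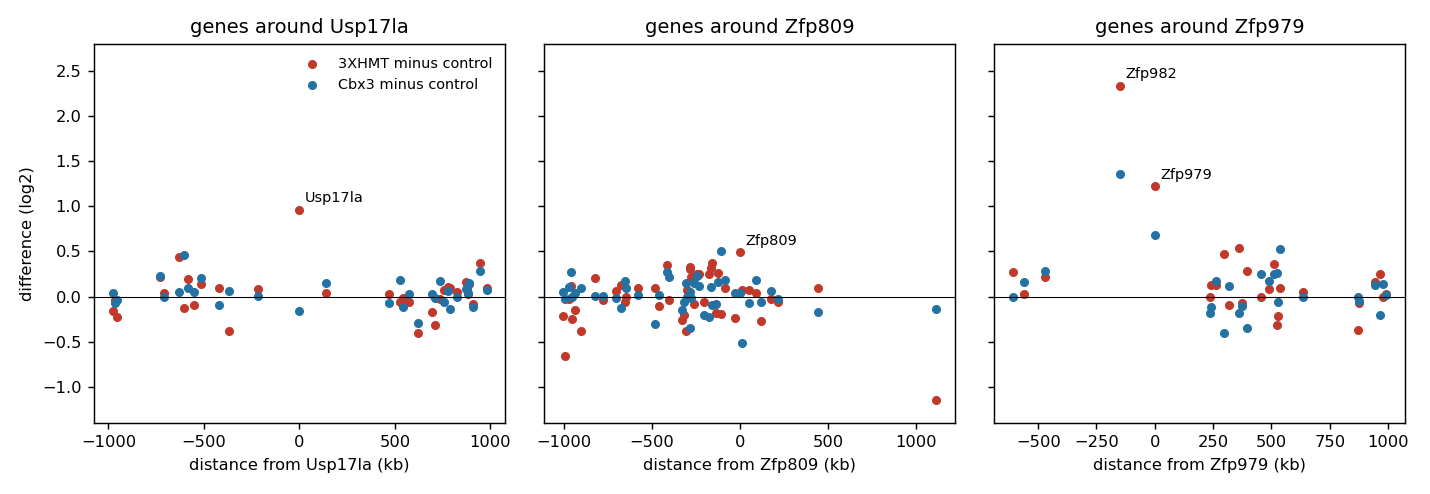
Log2 difference from control of genes within 1 Mb of Usp17la, Zfp809 and Zfp979, by distance between gene midpoints in kb, each gene at its brightest probe set. At these probe sets the members stand above their neighbours in 3XHMT cells, from which nothing is read, since that difference chose them. Zfp982 and Zfp979 stand above their neighbours in Cbx3 cells too, but a dimmer Zfp991 probe set, not drawn, exceeds Zfp979 there.

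The genes whose signal was most like that of each member over the 8 arrays were named by Pearson's r among 3998 or 3999 genes that varied by an SD of at least 0.3. For Usp17la they were Neurod1, a neurogenic transcription factor (r = 0.99), Sult4a1, a brain sulfotransferase (0.98), and Eprn (0.97). For Zfp809 they were the phosphodiesterase gene Pde1b (0.99), Aass, an enzyme of lysine breakdown (0.98), and Dppa4 (0.96). Zfp982 and Zfp979 were each other's nearest (0.97), followed by Cthrc1 and Pgbd5 (0.97 and 0.96) for Zfp982 and by Sult1c1 and Cyp11a1 (0.95 each) for Zfp979. The 8 arrays include the 3XHMT arrays that chose the members, so r favours genes that were higher there too. All genes named here were, from 1.72-fold (Cyp11a1) to 39.0-fold (Aass) above control. The Cbx3 arrays are also among those that chose these genes, so their Cbx3 values are a description. Relative to control they were 1.32-fold (Cyp11a1) to 2.05-fold (Sult1c1) for Zfp982 and Zfp979, 0.72-fold to 0.92-fold for Usp17la, and 0.80-fold (Dppa4), 1.13-fold (Pde1b) and 1.59-fold (Aass) for Zfp809.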

How the data were processed

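The authors deposited log2 values of 45101 probe sets from 8 arrays, made with RMA per the submitters' processing notes (version and settings not stated). RMA gives all arrays 1 distribution, which removes any shift common to most genes. The number of arrays limits the precision. Names came from the platform annotation (34945 with 1 symbol, 932 with several, 9160 not listed); 34741 of those with 1 symbol matched the RefSeq gene table of GRCm38.p6. The 64 control probe sets were left out.

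A limma model (version 3.58.1, R 4.3.3, two-sided, 5 residual degrees of freedom) of the 3 groups was run on all 8 arrays, once over 45037 probe sets, for the members, and once over 18193 genes at their brightest probe set, for lists. The threshold was 0.05 after Benjamini-Hochberg adjustment. The steps were tested on simulated data. The members, the lists and the block by 18S set were chosen with earlier results of these data known. Named genes are the members, the called genes of each list or otherwise its 2 lowest p each way, and the 3 most similar genes of each member; not all of them are printed. The probe sets of Rex2, Zfp980, Zfp600, Zfp981 and Zfp991, and those of Usp17lc and Usp17ld, were named after their values were seen. So were Zfp934, Dppa3, Zfp352, Tcstv1, Tcstv3, Tdpoz1, Duxf3 and the Zscan4 genes.

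Replicate numbers pair control with Cbx3 arrays, whose deviations from group means correlated across genes by 0.57, 0.59 and 0.74, but not with 3XHMT arrays (0.11 and -0.56 against same-numbered control arrays). Alternatives were blocks by replicate and by 18S set, cyclic loess, median centring, filters on dim probe sets and on those with the suffix _x_at, _s_at or _a_at, other variance settings and leaving out each array. Upstream sequences were compared by global alignment with free end gaps, after a screen for at least 20 shared words of 12 bases.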

Additional observations from a re-analysis of the deposited data

How the results depend on the processing

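The block settings moved the counts of calls most. Over all 18193 genes, the replicate number as a block took the 3XHMT calls from 37 higher and 5 lower to 60 and 37. It took the Cbx3 calls from 46 higher and 35 lower to 156 each. With this block the 3XHMT list calls were 2 of the 2-cell list and 1 neighbour, against 1 and 0 without it. The list calls in Cbx3 cells were 2 zinc finger genes, against 0. With the 18S set as a block they were 4 zinc finger genes, 2 of the 2-cell list, 1 silencing gene, 1 protease and 2 neighbours in 3XHMT cells, and in Cbx3 cells 2 member probe sets, 40 zinc finger genes, 1 of the 2-cell list, 1 silencing gene, 2 proteases and 3 neighbours. The 18S block called 1.76% (3XHMT) and 6.59% (Cbx3) of all genes, and 3.43% of all probe sets (Cbx3). A replicate block on control and Cbx3 arrays only was chosen after seeing the data. Its Cbx3 calls were 1 member probe set, 45 zinc finger genes, 1 of the 2-cell list, 1 silencing gene, 2 proteases and 2 neighbours. No share over all genes is given for this fit, so nothing is read from its counts. In it Zfp982 passed (limma adjusted p = 0.0170) and Zfp979 did not (0.0545). With the replicate block on all 8 arrays neither passed (0.465 and 0.407). The zinc finger call in 3XHMT cells, Zfp42, went to 0 with cyclic loess, without dim probe sets, with only the 2 groups compared, with the mean over the probe sets of a gene, and without any 1 array (0 to 0). The 2-cell count was 0 with only the 2 groups compared, 2 without cross-matching probe sets or with the mean over probe sets, and 0 to 1 without 1 array, with 0 for control replicate 1 or 2. The causes were not tested. The Zfp809 difference in Cbx3 cells ran from -0.022 without Cbx3 replicate 1, where its sign turned, to 0.074 without Cbx3 replicate 2. Signs also turned for small differences on leaving out 1 array: 1436386_x_at of Zfp982 ran from -0.037 to 0.35 (3XHMT minus control), and 1456179_at from -0.16 to 0.20 (3XHMT minus Cbx3). The filter on cross-matching probe sets went by suffix (_x_at, _s_at and _a_at), so it also left out Zfp809, whose _a_at stands for transcripts of 1 gene, beside 2 Zfp982 probe sets with 1439065_x_at among them. The filter on dim probe sets left a value for Zfp809 alone. The other settings kept the remaining member differences within the spread between replicates, apart from Zfp982 without either 3XHMT array. Control signal was low for all members but Zfp809, and lay at the 26.9th percentile for 1439065_x_at of Zfp982. Low signal can limit fold changes, and what part it has in these was not tested.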
